A study of Nannospalax ehrenbergi and Mus musculus with 25 samples.

Results

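Untreated neck muscle of the blind mole rat Spalax was set against untreated neck muscle of the laboratory mouse, using the 4 control libraries of Spalax and the 3 control libraries of mouse, 7 of the 25 libraries of the series. The libraries were chosen by their source labels (Spalax control, mice control). Of 27988 genes in the Spalax table and 47593 genes in that of mouse, 14769 symbols are in both. Spalax is a subterranean rodent known for tolerance of very low oxygen, a long life for its size and rarity of spontaneous tumors, and the series follows its response to the carcinogen 3-methylcholanthrene beside that of mice. The comparison of untreated muscle gives the level from which each species starts.

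The Spalax controls (Nannospalax ehrenbergi) were healthy wild-caught animals labelled F, of ages that are not exactly known, and biopsied under isoflurane before they recovered. The mouse controls were healthy purchased C57BL/6 animals labelled M, young adults killed with isoflurane. None of the 7 received the carcinogen. Species, sex label, age, wild against inbred origin, sampling, and the genome and gene models used for counting differ together between the groups and cannot be told apart in these libraries. Every p-value below sets the gap between the 2 tables against the spread between animals within a species, and in bulk muscle fewer cells of a type and less RNA per cell cannot be told apart.

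Skeletal muscle holds slow fibers, which use oxygen steadily and carry their own forms of myosin and troponin, and fast fibers, which contract quickly and rely more on glycolysis. Myoglobin stores oxygen in muscle cells. When oxygen is short, the HIF transcription factors escape prolyl hydroxylation and VHL-driven breakdown and raise genes of blood vessel growth and glycolysis. White fat stores triglyceride, brown fat burns it for heat through uncoupling protein, and either can lie against a muscle.

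The Spalax control libraries held 21473077 to 23386729 reads, 89.5% to 90.4% of them in shared genes, and the mouse control libraries 26284991 to 31179183 reads, 75.2% to 77.3% of them in shared genes. The 37 mouse mitochondrial genes, which are outside the shared set, took 11.8% to 14.6% of the mouse reads. Levels are given as CPM, the reads of a gene after every library was brought to the same sum over shared genes, in replicates 1 to 4 of Spalax and 1 to 3 of mouse. CPM does not correct for gene length, so a level is compared only with the same gene in the other species. Acta1, the actin of skeletal muscle fibers, stood at 27500.3 to 36522.0 CPM in Spalax and 17342.9 to 33947.6 CPM in mouse, and was not called different (limma log2 difference 0.41 ± 0.42 SE, adjusted p = 0.349).

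Several libraries stood apart or went against a label. The mouse library labelled male as replicate 1 had Xist, the RNA of the inactive X chromosome, at 324.5 CPM of the whole mouse table and the Y-linked Ddx3y at 0.223 CPM, where replicates 2 and 3 had Xist at 0.571 and 0.834 CPM and Ddx3y at 82.5 and 149.2 CPM. Summed salivary gland markers were at 912.4, 0.658 and 2174.3 CPM in mouse replicates 1 to 3 and at 0.0507 to 0.151 CPM in Spalax. In Spalax replicate 4, the posterior Hox genes Hoxa9, Hoxa10, Hoxa11 and Hoxa13 had 502, 239, 51 and 21 reads, against 4 to 10 reads of Hoxa9 and 0 reads of the others in Spalax replicates 1 to 3. Fat markers differed between the species and are given below. Of 177 genes named below and called different, 171 could be tested without mouse replicate 1 and 156 of them kept their call. The other 6 were Elovl3, Hapln1, Isg20, Stab2, Ucp1 and Xdh, for which too few of the remaining libraries passed the filter on low values.

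Of 12026 genes tested, 2548 (21.2%) were called higher and 4473 (37.2%) lower in Spalax than in mouse (limma, Benjamini-Hochberg adjusted p of at most 0.05). At least 4-fold differences were called for 628 genes higher (5.22%) and 1425 lower (11.8%). For 7074 genes (58.8%) the 4 Spalax and 3 mouse values did not overlap. These shares are the background for every list below. Differences are log2 of (CPM + 0.5), Spalax minus mouse, with the standard error (SE) of the fit, and folds of genes near 0 in 1 species are held down by the added 0.5.

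The split between higher and lower depended on the scaling. Rescaled to a common total, the median gene differed by -0.30 between the species, and with TMM scaling, which centers on the bulk of genes, by -0.03. TMM called 3473 genes higher (28.9%) and 3734 lower (31.0%). For each list the median difference is therefore given relative to that of all genes. Without mouse replicate 1 the calls were 2109 higher and 3221 lower, of which 631 and 1119 were at least 4-fold. With the other control libraries left out in turn, the total called ranged up to 6750.

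**Figure D1:**
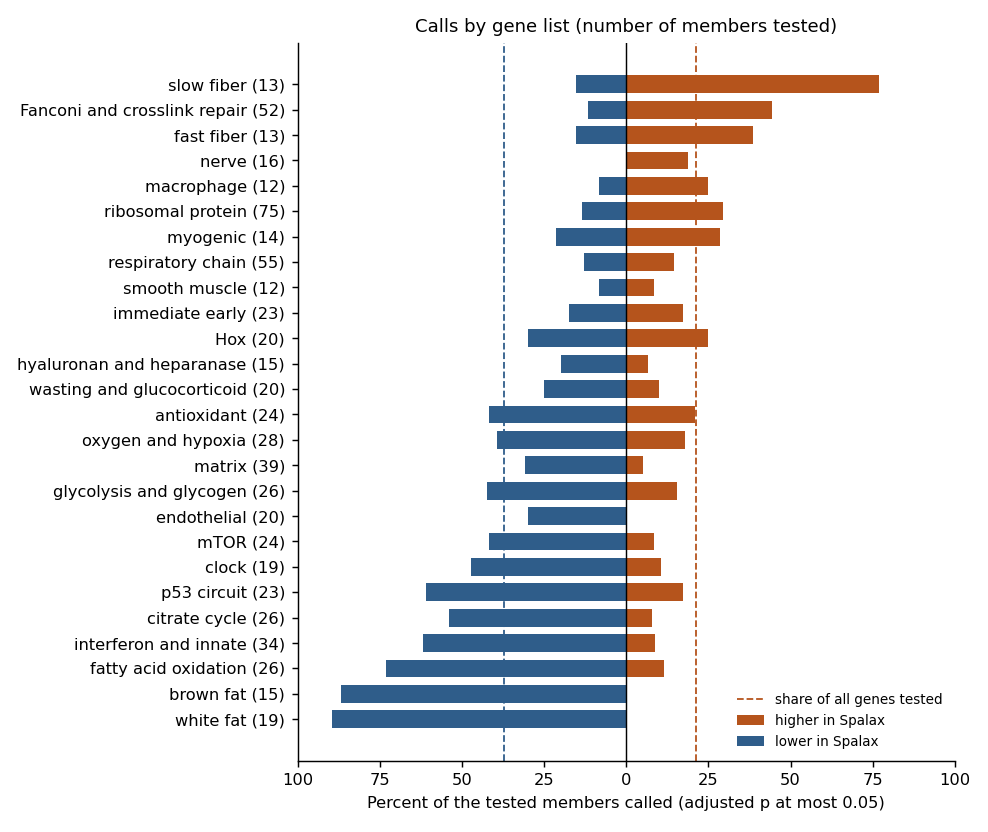
Percent of the tested members of each gene list called higher (right) or lower (left) in Spalax control than in mouse control muscle, with dashed lines at the shares of all 12026 genes, 21.2% higher and 37.2% lower. Slow fiber genes reach furthest to the higher side with 10 of 13, and brown and white fat genes furthest to the lower side with 13 of 15 and 17 of 19.

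Part of the largest differences sat at mouse genes whose exons lie under other genes. In the mouse annotation, 212 tested genes had at least 50% of their exon bases under exons of other genes, and 43.4% of these were called at least 4-fold higher in Spalax, against 4.27% of the 7514 genes with no such overlap. Where the other gene was on the same strand the share was 53.5% of 101 genes, and where only the opposite strand was covered it was 33.3% of 90. Read counters commonly set aside a read that falls on 2 genes, and no such overlap was measured on the Spalax side. How much of each difference this makes was not tested gene by gene. Without the genes under other exons at 10% or more, 491 genes were called at least 4-fold higher and 1244 lower.

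Examples show the layout of such loci in GRCm38. Tnnc2, fast-fiber troponin C, lies at chr2:164777161-164779967 on the minus strand with 74.0% of its exon bases under another gene, chiefly Ube2c on the plus strand. Cpt1b, the muscle enzyme that admits fatty acids to mitochondria, lies at chr15:89416405-89425863 on the minus strand. Of its exon bases, 81.4% are under a readthrough gene, Gm44502, on the same strand, and both genes end at base 89416405. Fen1, a flap nuclease of DNA replication and repair, lies at chr19:10199132-10204169 with 84.2% covered. Each is printed below with that share beside its value.

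**Figure D2:**
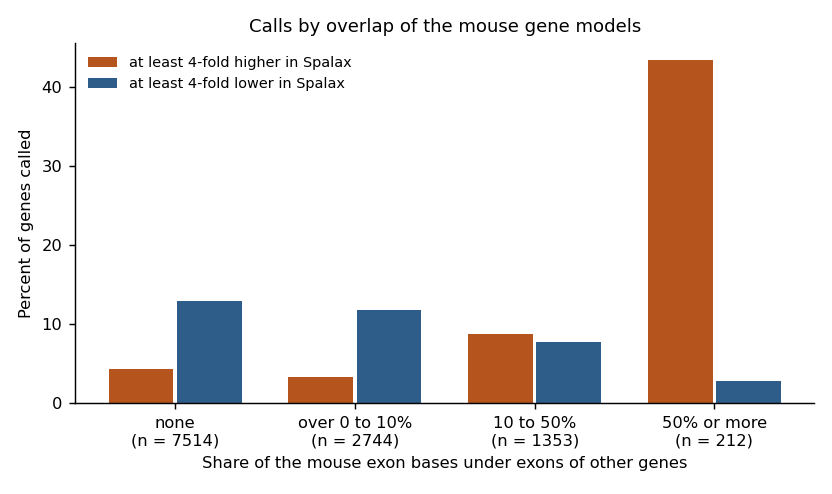
Percent of tested genes called at least 4-fold higher or lower in Spalax control, by the share of the gene's mouse exon bases that lie under exons of other genes. The higher calls reach 43.4% at 50% or more, and the lower calls fall from 12.9% with no overlap to 2.83%.

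Slow fiber genes were higher in Spalax. Of 13 tested, 10 were called higher, 7 of them at least 4-fold, and 2 lower, with a median of 2.35 above that of all genes, and TMM scaling also called 10 higher and 2 lower. Their summed level was 19305.3 to 26979.1 CPM in Spalax and 4188.5 to 6797.1 CPM in mouse. Myh7, the slow myosin heavy chain, stood at 1467.2, 2868.9, 2367.3 and 1671.6 CPM in Spalax and at 531.2, 479.0 and 257.7 CPM in mouse (log2 difference 2.32 ± 0.32 SE, limma adjusted p = 2.65e-04). All 4 Spalax values lay above the mouse values, and 13.3% of the mouse exon bases of Myh7 are under another gene.

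Tnnt1, slow troponin T, was at 1080.1, 2047.7, 2199.1 and 1108.7 CPM in Spalax and 447.7, 496.2 and 205.5 CPM in mouse (2.09 ± 0.38, limma adjusted p = 0.00125). Tnni1, slow troponin I, was at 625.9 to 1294.0 CPM against 85.7 to 218.8 CPM (2.53 ± 0.38, adjusted p = 4.81e-04), and the slow light chain Myl2 at 1422.2 to 3689.7 CPM against 235.9 to 727.6 CPM (2.53 ± 0.43, adjusted p = 8.59e-04). The widest gap of the list was at Sln, encoding sarcolipin, a small regulator of the calcium pump SERCA, with 1946.4, 1154.6, 2372.6 and 991.9 CPM in Spalax and 34.4, 3.74 and 4.10 CPM in mouse (7.43 ± 0.68, adjusted p = 2.71e-05). Mouse replicate 1 held most of the little Sln in mouse, and without it the difference was 8.42. The members lower in Spalax were Pln, encoding phospholamban, another inhibitor of the pump, at 0.104 to 0.753 CPM against 5.87 to 11.4 CPM (64.7% of exon bases under another gene), and Casq2, the slow and cardiac calsequestrin, at 7.0 to 37.9 CPM against 66.6 to 108.7 CPM.

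Fast fiber genes did not move together. Of 13 tested, 5 were called higher and 2 lower, with a relative median of 0.82. The genes of the main fast myosins, Myh4, Myh2 and Myh1, are in the mouse table only, so their level could not be compared. The genes lower in Spalax were Actn3 and Pvalb. Actn3, the alpha-actinin of fast fiber Z-discs, was at 725.6, 510.1, 581.2 and 2062.0 CPM in Spalax and 4422.2, 5504.1 and 3723.2 CPM in mouse (-2.46 ± 0.45, limma adjusted p = 0.00130). Pvalb, the calcium buffer parvalbumin, was at 197.8, 383.5, 527.0 and 1368.3 CPM in Spalax and 5419.1, 13952.5 and 5322.9 CPM in mouse (-3.93 ± 0.60, adjusted p = 5.13e-04). For both, every Spalax value lay below every mouse value, and Spalax replicate 4 was the highest of its group.

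Among fast genes higher in Spalax, Myoz3, a Z-disc protein that binds calcineurin, was at 120.9 to 128.2 CPM against 20.6 to 23.6 CPM (2.48 ± 0.14, limma adjusted p = 1.90e-06). Tnnc2 was at 9125.4, 7335.0, 11259.4 and 8551.0 CPM in Spalax and 0.432, 0.708 and 0.169 CPM in mouse (13.27 ± 0.23, adjusted p = 5.03e-09), with the overlap of 74.0% described above. The light chain Myl1 was at 11660.8 to 16401.4 CPM against 3374.1 to 11603.3 CPM (1.27 ± 0.43, adjusted p = 0.0300). The call of Myl1 was lost without mouse replicate 1 (0.85, adjusted p = 0.120) and without any of Spalax 1, Spalax 3, Spalax 4 or mouse replicate 3 (adjusted p from 0.0584 to 0.0756).

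**Figure D3:**
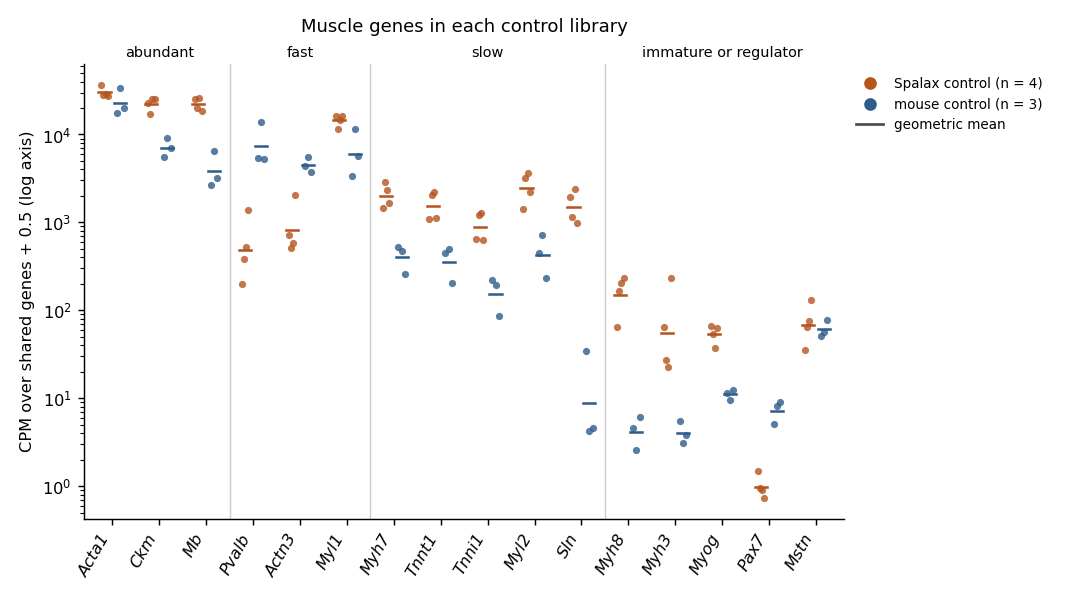
CPM in each control library on a log axis for actin, creatine kinase and myoglobin, fast fiber genes, slow fiber genes and genes of muscle growth, with Spalax and mouse as separate points. The slow genes Myh7, Tnnt1, Tnni1, Myl2 and Sln are higher in all 4 Spalax libraries, while Pvalb and Actn3 are lower in all 4.

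Myogenic genes included developmental myosins at higher level in Spalax. Of 14 tested, 4 were called higher and 3 lower. Myh8, the perinatal myosin heavy chain, was at 63.9, 164.0, 206.5 and 233.8 CPM in Spalax and 4.08, 2.07 and 5.62 CPM in mouse (5.18 ± 0.46, limma adjusted p = 2.26e-05). Myh3, the embryonic form, was at 63.4, 26.9, 22.1 and 235.5 CPM against 5.09, 2.63 and 3.34 CPM (3.77 ± 0.71, adjusted p = 0.00165), and at a difference of 3.07 without Spalax replicate 4. Both myosins separated the species in every library.

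Myog, encoding the differentiation factor myogenin, was at 66.8, 53.5, 36.9 and 62.0 CPM in Spalax and 10.9, 9.11 and 12.0 CPM in mouse (2.28 ± 0.24, limma adjusted p = 5.68e-05). Pax7, the defining transcription factor of the satellite cell, the resident stem cell of muscle, was at 0.984, 0.452, 0.406 and 0.238 CPM in Spalax and 4.66, 7.69 and 8.49 CPM in mouse (-2.88 ± 0.32, adjusted p = 8.51e-05). Myf5 (-1.33 ± 0.36, adjusted p = 0.0107) and Cdh15, which encodes M-cadherin (-1.22 ± 0.27, adjusted p = 0.00418), were also lower, the call of Myf5 being lost without mouse replicate 3 (-1.19, adjusted p = 0.0538). Mstn, the growth inhibitor myostatin, was at 34.5 to 129.3 CPM against 51.1 to 78.2 CPM and was not called (adjusted p = 0.727).

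Myoglobin was higher in Spalax, while the oxygen and hypoxia genes as a list had about the shares of calls of all genes. Of 28 tested, 5 were called higher and 11 lower, with a relative median of -0.31, and TMM called 6 higher and 7 lower. Mb was at 25446.7, 19908.4, 25886.4 and 18390.3 CPM in Spalax and 2696.9, 6544.7 and 3239.5 CPM in mouse (2.52 ± 0.38, 5.75-fold, limma adjusted p = 4.66e-04). The lowest Spalax library had more than the highest mouse library, and 31.9% of the mouse exon bases of Mb are under another gene.

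Hif1a, the oxygen-regulated subunit of HIF-1, was at 24.0, 35.2, 16.2 and 28.9 CPM in Spalax and 76.4, 50.1 and 88.7 CPM in mouse (-1.46 ± 0.29, limma adjusted p = 0.00234). Egln1, encoding the main prolyl hydroxylase that marks HIF for breakdown, was at 98.4, 100.7, 98.4 and 101.9 CPM against 492.6, 411.2 and 391.5 CPM (-2.10 ± 0.14, adjusted p = 5.07e-06). Vhl, which carries hydroxylated HIF to the proteasome, was on the opposite side with 42.5, 59.0, 30.9 and 33.7 CPM against 20.2, 12.0 and 16.3 CPM (1.32 ± 0.27, adjusted p = 0.00276). The groups did not overlap at any of these genes. Vegfa, the main growth factor of blood vessels, was lower at 60.3 to 149.1 CPM against 273.2 to 383.2 CPM (-1.63 ± 0.30, adjusted p = 0.00133).

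Among HIF targets, Pdk1, a kinase that closes entry of pyruvate into the citrate cycle, was nearly missing from Spalax with 1.24, 1.05, 1.01 and 0.953 CPM against 182.8, 140.3 and 144.4 CPM (-6.63 ± 0.21, limma adjusted p = 8.62e-08). Cited2, a competitor of HIF for its coactivator, was also lower (-2.39 ± 0.30, adjusted p = 1.68e-04), and the neuronal globin Ngb was higher at 0.753 to 1.48 CPM against 0.0845 to 0.288 CPM (1.12 ± 0.26, adjusted p = 0.00527). The values of Epas1, encoding HIF-2 alpha, overlapped at 228.2 to 394.2 CPM against 288.7 to 599.0 CPM (-0.63 ± 0.28, adjusted p = 0.0841), but passed without mouse replicate 2 (-0.97, adjusted p = 0.00630). Egln3, another prolyl hydroxylase, was not called at -0.91 ± 0.37 (adjusted p = 0.0600), and was called without Spalax replicate 4 (-1.24, adjusted p = 0.00586) or mouse replicate 2 (-1.11, adjusted p = 0.0479).

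Of 20 endothelial genes tested, none was called higher and 6 were called lower (TMM 2 and 5), with a relative median of -0.21, and their summed level overlapped at 939.3 to 1601.7 CPM in Spalax and 1215.4 to 2084.7 CPM in mouse. Pecam1 was at 200.2 to 306.9 CPM against 139.5 to 292.3 CPM (0.08 ± 0.28, limma adjusted p = 0.824). Kdr, the main VEGF receptor, was at 76.5 to 146.8 CPM against 99.0 to 174.2 CPM (-0.25 ± 0.28, adjusted p = 0.460). Cdh5, encoding VE-cadherin, was called lower (-0.97 ± 0.33, adjusted p = 0.0306), a call lost without mouse replicate 1 (-0.94, adjusted p = 0.0808), mouse replicate 3 (-0.69, adjusted p = 0.121), Spalax replicate 3 or Spalax replicate 4. The receptor genes Tie1 (-2.25 ± 0.27, adjusted p = 1.33e-04) and Flt1 (-1.19 ± 0.32, adjusted p = 0.00971) and the ligand gene Apln (-1.62 ± 0.37, adjusted p = 0.00454) were lower.

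**Figure D4:**
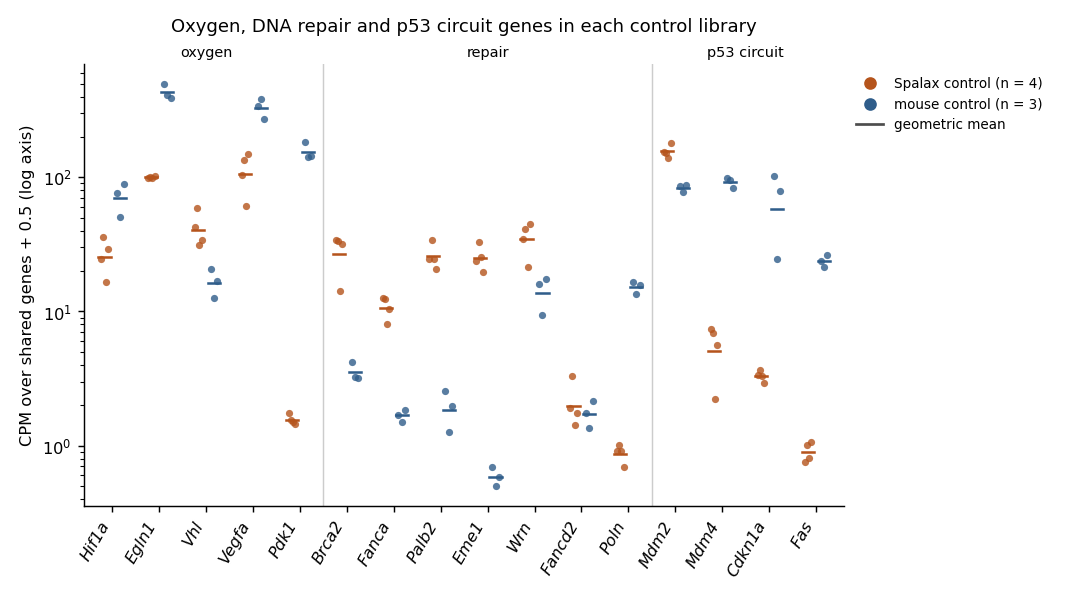
CPM in each control library on a log axis for oxygen response genes, DNA repair genes and genes of the p53 pathway. Hif1a, Egln1, Vegfa and Pdk1 are lower and Vhl higher in all 4 Spalax libraries, and Brca2, Fanca, Palb2, Eme1 and Wrn are higher while Poln, Mdm4, Cdkn1a and Fas are lower.

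Energy metabolism genes differed by pathway. Of 26 citrate cycle and neighboring genes, 2 were called higher and 14 lower (relative median -0.78), and of 26 fatty acid oxidation genes 3 were called higher and 19 lower (relative median -0.89). Of 26 glycolysis and related genes, 4 were higher and 11 lower (-0.09), and of 55 respiratory chain genes 8 were higher and 7 lower (0.23). With TMM the respiratory chain count was 9 higher and 2 lower. Many of the lower genes are also abundant in fat, whose markers were higher in mouse as given below.

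Ogdh, a subunit of the oxoglutarate dehydrogenase of the citrate cycle, was at 328.5, 327.1, 203.0 and 435.8 CPM in Spalax and 1977.5, 1219.2 and 1724.2 CPM in mouse (-2.36 ± 0.28, limma adjusted p = 1.07e-04). Pck1, which feeds the glycerol of triglyceride in fat and glucose synthesis in liver, was at 0.673, 15.8, 7.81 and 3.81 CPM against 1961.9, 558.0 and 2095.1 CPM (-8.01 ± 0.82, adjusted p = 4.83e-05). Acly, which makes acetyl-CoA for lipid synthesis, was lower by a difference of -2.08 that fell to -1.09 (adjusted p = 0.0118) without mouse replicate 1, the library with 909.4 of the 909.4, 103.0 and 133.8 CPM. Higher in Spalax were Idh2, the mitochondrial isocitrate dehydrogenase, at 1424.7 to 1686.4 CPM against 619.9 to 862.6 CPM (1.08 ± 0.18, adjusted p = 8.91e-04), and Suclg2, a succinyl-CoA ligase subunit (0.97 ± 0.17, adjusted p = 0.00112).

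Outside glycolysis itself, Ckm, the muscle creatine kinase that buffers ATP, was at 22679.8, 17146.5, 25468.1 and 25029.7 CPM in Spalax and 5483.2, 9156.9 and 6939.9 CPM in mouse (1.66 ± 0.35, limma adjusted p = 0.00280, 15.5% of exon bases under another gene). In glycolysis, Pfkm, the muscle phosphofructokinase, overlapped at 2528.3 to 3663.1 CPM against 1497.4 to 3044.2 CPM (adjusted p = 0.271), as did Ldha, the muscle lactate dehydrogenase, at 1534.5 to 2636.5 CPM against 2096.1 to 2911.8 CPM (adjusted p = 0.518). Ldhb, the form of oxidative tissue, was lower (-1.0 ± 0.22, adjusted p = 0.00359) but not with TMM (-0.71, adjusted p = 0.0661). Pfkl, the liver phosphofructokinase, was lower at 17.6 to 37.2 CPM against 101.2 to 233.4 CPM (-2.74 ± 0.33, adjusted p = 1.22e-04), as were Pgam1 at -2.57 ± 0.23 (adjusted p = 2.45e-05) and the regulator Pfkfb3 at -2.83 ± 0.40 (adjusted p = 3.12e-04). Pgk1 was higher by 0.62 ± 0.18 (adjusted p = 0.0166), a call lost without mouse replicate 1 (adjusted p = 0.0681) or mouse replicate 3 (adjusted p = 0.0558).

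No respiratory chain gene was called at 4-fold or more. Atp5g2, which encodes a c-ring subunit of ATP synthase, was at 397.7 to 638.6 CPM in Spalax and 134.5 to 184.9 CPM in mouse (1.68 ± 0.21, limma adjusted p = 1.53e-04). Complex I genes lay on either side, with Ndufb2 higher (1.62 ± 0.27, adjusted p = 8.07e-04) and Ndufb9 and Ndufb3 lower by -1.06 and -0.77. Ndufb3 was not called with TMM (adjusted p = 0.180). Atp5s, a coupling factor gene, was higher by 1.53 ± 0.22 (adjusted p = 3.89e-04).

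In fatty acid oxidation, Cpt1b was at 432.8, 560.8, 492.7 and 501.1 CPM in Spalax and 4.90, 4.86 and 6.85 CPM in mouse (6.37 ± 0.18, limma adjusted p = 3.05e-08), with 81.4% of its mouse exon bases under another gene. Etfb, an electron carrier subunit, was higher by 1.51 ± 0.25 (adjusted p = 7.50e-04) with 58.2% covered. Pdk4, the fasting-induced kinase that spares glucose, was at 65.3, 282.6, 136.6 and 38.6 CPM against 1342.3, 532.5 and 1671.5 CPM (-3.41 ± 0.64, adjusted p = 0.00161), with no overlap between the groups. Ehhadh, an enzyme of peroxisomal oxidation, was at 0.363 to 1.71 CPM against 65.4 to 143.8 CPM (-6.25 ± 0.40, adjusted p = 3.42e-06). Ucp3, the uncoupling protein of muscle, was at 135.6 to 407.6 CPM against 97.8 to 172.0 CPM and was not called (0.93 ± 0.37, adjusted p = 0.0533), but passed without Spalax replicate 4 (1.21, adjusted p = 0.0115) or mouse replicate 3 (1.14, adjusted p = 0.0451).

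Of the lists, fat genes had the widest gap between the species. Of 15 brown fat genes tested, 13 were called lower in Spalax, 10 of them at least 4-fold, and none higher (relative median -3.67). Of 19 white fat genes, 17 were called lower, 15 at least 4-fold, and none higher (relative median -3.29). The summed brown fat level was 854.9, 1296.2, 1616.7 and 684.0 CPM in Spalax and 4797.6, 3179.8 and 5083.8 CPM in mouse, and the summed white fat level 2275.0, 4550.9, 2868.2 and 3083.1 CPM in Spalax and 28178.1, 13577.6 and 24117.9 CPM in mouse. Part of either list, such as Fabp3, Cd36 or Lpl, is also made by muscle itself.

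Ucp1, the uncoupling protein that defines brown fat, was at 0.0518, 0, 0 and 0.0477 CPM in Spalax and 2711.4, 1209.2 and 2526.4 CPM in mouse (limma log2 difference -11.91 ± 0.29, adjusted p = 2.11e-08). These were 2 reads in all of Spalax against 140106 in mouse, a ratio of 87165.1 with an exact 95% counting interval of 24129.3 to 719757.3, and such intervals cover counting error only. Cidea, a lipid droplet protein of brown fat, was at 1.19, 1.10, 3.70 and 1.91 CPM against 619.1, 550.1 and 722.7 CPM (-8.10 ± 0.33, adjusted p = 2.82e-07). All 3 mouse libraries held brown fat transcripts and no Spalax control library held more than 3.70 CPM of either gene.

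Elovl3, an enzyme of long-chain fatty acids induced in brown fat, had 0 reads in Spalax and 2318 in mouse, at least 961.4-fold lower against a floor of 3 reads over the Spalax group. Slc27a2, a fatty acid transporter, was at 0 to 0.502 CPM against 43.8 to 114.7 CPM (-6.95 ± 0.39, limma adjusted p = 1.84e-06). Dio2, the deiodinase that activates thyroid hormone, was at 5.85 to 9.82 CPM against 10.8 to 134.6 CPM (-2.77 ± 0.72, adjusted p = 0.00897), and its size rested on single mouse libraries, at -2.08 without mouse replicate 1 and -3.87 without mouse replicate 2. Cox8b is in the mouse table only. Ucp1 and Elovl3 could not be tested without mouse replicate 1, and the relative median of the brown fat genes still tested was then -2.01 (-2.21 without mouse replicate 3).

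White fat markers were present in Spalax at low level. Adipoq, the hormone adiponectin made by fat cells, was at 4.61, 201.7, 48.9 and 44.0 CPM in Spalax and 628.3, 269.5 and 599.3 CPM in mouse (-3.59 ± 1.00, limma adjusted p = 0.0123). Plin1, the coat protein of fat droplets, was at 1.71, 42.5, 8.47 and 12.5 CPM against 401.8, 172.7 and 445.4 CPM (-4.94 ± 0.83, adjusted p = 8.37e-04). Lep, the hormone leptin, was at 0, 6.98, 1.12 and 2.57 CPM against 25.4, 7.94 and 16.9 CPM (-2.91 ± 0.80, adjusted p = 0.0120). In each case Spalax replicate 2 was the highest and replicate 1 the lowest of the Spalax libraries, and none reached the lowest mouse library.

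Leaving out single libraries moved these white fat values by over 1.5 times without ending a call. Without Spalax replicate 1 the difference was -2.61 for Adipoq, -4.20 for Plin1, -2.23 for Lep, -3.54 for Cebpa and -5.09 for Cidec, and without Spalax replicate 2 it was -4.38 for Adipoq, -5.63 for Plin1, -3.53 for Lep and -6.74 for Cidec. Cfd, adipsin, was lower by -4.02 ± 0.53 (limma adjusted p = 2.18e-04), with -3.43 without mouse replicate 1 and -4.70 without mouse replicate 2. Cebpa, a transcription factor of fat cells, was lower by -4.21 ± 0.79 (adjusted p = 0.00156), with -4.85 without mouse replicate 2. Cidec, which fuses lipid droplets, was lower by -6.04 ± 0.96 (adjusted p = 6.41e-04), and Lpl, the lipase that releases fatty acids from circulating triglyceride, by -4.95 ± 0.34 (adjusted p = 5.28e-06).

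The fat markers also varied among the other mouse muscle libraries. On the uninjected side of mice with a fibrosarcoma, the summed brown fat level was 2140.8, 1994.9 and 109.1 CPM and the summed white fat level 8832.0, 16078.9 and 4385.1 CPM. In the 12 Spalax muscle libraries the brown fat sum, which includes genes of muscle itself, lay between 560.6 and 1641.7 CPM. The defining genes set 1 of these apart: on the uninjected side of Spalax with a fibrosarcoma, replicate 2 had Ucp1 at 606.4 CPM (9144 reads) and Cidea at 235.7 CPM, against at most 0.355 and 3.70 CPM in the other 11. The part of fat RNA in the other differences was not tested.

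**Figure D5:**
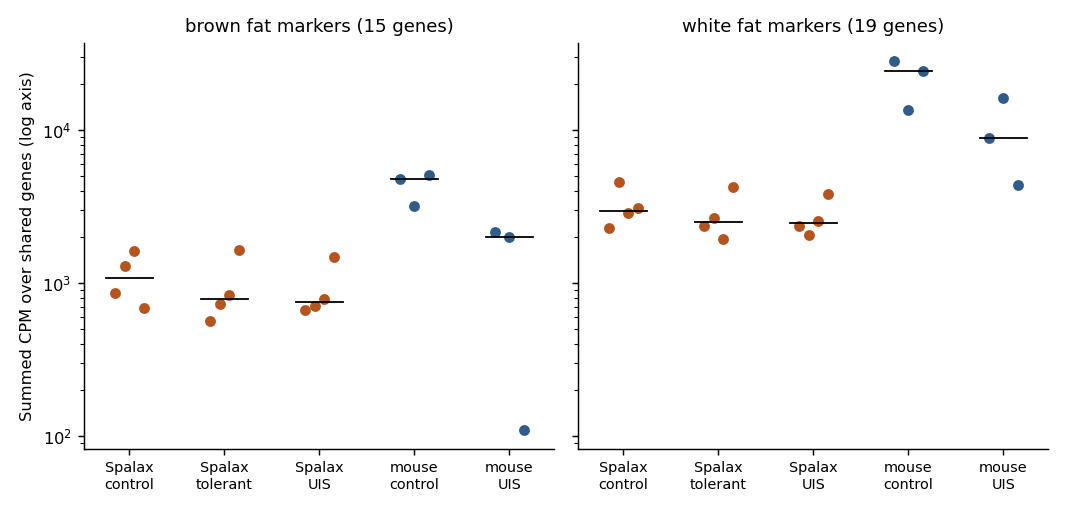
Summed CPM of 15 brown fat and 19 white fat genes in 18 muscle libraries, by group, with a bar at the group median. The 3 mouse controls (3179.8 to 5083.8 CPM for brown fat) lie above all Spalax libraries in both sums, and the mouse uninjected side spreads from 109.1 to 2140.8 CPM in the brown fat sum.

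Genes of Fanconi anemia and homologous repair, which mend crosslinks and broken DNA, leaned to the higher side in Spalax. Of 52 tested, 23 were called higher, 10 of them at least 4-fold, and 6 lower (relative median 0.85), with 30 and 5 under TMM. Summed over the list, the level was 950.0 to 1164.1 CPM in Spalax and 665.1 to 754.3 CPM in mouse. Brca2, a central protein of homologous repair, was at 33.6, 33.2, 13.6 and 31.6 CPM in Spalax and 3.70, 2.73 and 2.70 CPM in mouse (2.93 ± 0.34, limma adjusted p = 1.07e-04). Its partner Palb2 was at 24.2, 33.9, 24.3 and 20.2 CPM against 2.07, 0.759 and 1.48 CPM (3.79 ± 0.31, adjusted p = 1.37e-05). No Spalax value of either gene came near a mouse value.

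Fanca, a subunit of the Fanconi core complex, was at 7.56 to 12.0 CPM against 1.01 to 1.35 CPM (2.66 ± 0.26, limma adjusted p = 3.59e-05). Fanci, which is ubiquitinated with FANCD2 at crosslinks, was at 2.96 to 7.53 CPM against 0.0481 to 0.211 CPM (3.23 ± 0.32, adjusted p = 4.23e-05). Eme1, a subunit of a nuclease that resolves joint DNA molecules, was at 23.3, 32.6, 24.9 and 19.3 CPM against 0.192, 0 and 0.0845 CPM (5.42 ± 0.27, adjusted p = 8.47e-07). Of these, Fanca, Fanci and Eme1 have 10.5%, 15.9% and 10.7% of their mouse exon bases under another gene, and Palb2 5.64%.

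Fen1 was higher at 26.5 to 33.4 CPM against 0 to 0.384 CPM (5.46 ± 0.27, limma adjusted p = 8.46e-07) with 84.2% covered, and Atrip, the partner of the checkpoint kinase ATR, at 11.0 to 15.1 CPM against 0.202 to 0.288 CPM (4.10 ± 0.24, adjusted p = 1.91e-06) with 16.0% covered. Wrn, the helicase mutated in Werner syndrome, was higher at 21.0 to 44.7 CPM against 8.86 to 16.9 CPM (1.32 ± 0.32, adjusted p = 0.00600). Fancd2 itself was at 0.913 to 2.81 CPM against 0.860 to 1.65 CPM and was not called (0.20 ± 0.33, adjusted p = 0.621). On the lower side were Poln, a translesion polymerase, at 0.191 to 0.502 CPM against 13.1 to 16.2 CPM (-4.14 ± 0.25, adjusted p = 2.23e-06), Eme2 (-2.28 ± 0.33, 54.2% covered) and the ligase subunit Fancl (-1.69 ± 0.31, 13.7% covered).

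Genes of the p53 pathway leaned to the lower side by number of calls, with 4 of 23 tested called higher and 14 lower, 7 of them at least 4-fold (relative median -0.59). Their summed level went the other way, at 2230.5 to 2900.6 CPM in Spalax and 1933.3 to 2179.8 CPM in mouse. Trp53 is in the mouse table only. Mdm2, the ligase that degrades p53, was at 154.4, 151.0, 139.7 and 179.5 CPM in Spalax and 85.3, 77.3 and 87.6 CPM in mouse (0.90 ± 0.15, limma adjusted p = 7.76e-04), while its relative Mdm4 was at 6.94, 6.37, 1.73 and 5.15 CPM against 98.1, 95.3 and 83.2 CPM (-4.20 ± 0.40, adjusted p = 3.19e-05). Both separated the species in every library, in opposite directions.

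Cdkn1a, the p21 inhibitor of the cell cycle, was at 2.85, 3.16, 2.79 and 2.43 CPM in Spalax and 102.4, 24.0 and 78.3 CPM in mouse (-4.15 ± 0.44, limma adjusted p = 6.27e-05; -4.77 without mouse replicate 2). Fas, a death receptor, was at 0.259, 0.502, 0.304 and 0.572 CPM against 23.1, 21.1 and 25.7 CPM (-4.72 ± 0.25, adjusted p = 1.22e-06). Both were low in all 4 Spalax libraries. The members higher in Spalax, beside Mdm2, were led by Ddb2, a sensor of ultraviolet damage, at 22.4 to 27.1 CPM against 4.86 to 7.35 CPM (1.83 ± 0.22, adjusted p = 1.42e-04, 23.8% covered), and Zmat3, an RNA-binding target of p53 (1.61 ± 0.27, adjusted p = 8.69e-04).

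Interferon and innate immune genes were mostly lower in Spalax, with 21 of 34 tested called lower, 8 at least 4-fold, and 3 higher (relative median -0.79). Ifngr1, a chain of the interferon gamma receptor, was at 24.4, 29.2, 20.1 and 18.3 CPM in Spalax and 138.4, 77.5 and 121.5 CPM in mouse (-2.25 ± 0.25, limma adjusted p = 7.53e-05). Irf1, a transcription factor induced by interferon gamma, was at 10.6, 22.2, 11.4 and 11.4 CPM against 37.1, 31.6 and 36.6 CPM (-1.37 ± 0.28, adjusted p = 0.00235). Neither overlapped. The interferon-induced genes Ifit2 (-4.59 ± 0.38, adjusted p = 1.44e-05) and Rsad2 (-3.36 ± 0.32, adjusted p = 3.48e-05), which act against viral RNA and replication, were lower, and Isg20, an exonuclease gene, had 3 reads in Spalax against 342 in mouse, a ratio of 141.8 with an exact 95% counting interval of 48.1 to 691.2.

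Mx1, an antiviral GTPase, was higher instead, at 2.72 to 16.7 CPM against 0.673 to 1.77 CPM (2.04 ± 0.53, limma adjusted p = 0.00899). Tlr4, the endotoxin receptor, overlapped at 6.90 to 10.2 CPM against 7.49 to 23.5 CPM (-0.70 ± 0.37, adjusted p = 0.137), and was called without mouse replicate 2 (-1.18, adjusted p = 0.00555). Of 12 macrophage markers, 3 were called higher and 1 lower, with summed levels that overlapped at 272.1 to 510.0 CPM in Spalax and 241.2 to 441.8 CPM in mouse. The macrophage genes called higher, Aif1, Fcer1g and C1qa, lost their call without mouse replicate 1 (adjusted p = 0.113, 0.0672 and 0.0946) and without other single libraries. Cd163, a scavenger receptor of resident macrophages, was at 3.26 to 5.97 CPM against 20.9 to 77.7 CPM (-3.34 ± 0.43, adjusted p = 1.80e-04).

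Antioxidant genes as a list had about the shares of calls of all genes (21.2% higher and 37.2% lower), with 5 of 24 called higher and 10 lower (relative median -0.08). Gpx3, the secreted glutathione peroxidase, was at 11.4, 34.2, 32.2 and 10.8 CPM in Spalax and 2500.6, 921.7 and 1615.1 CPM in mouse (-6.29 ± 0.48, limma adjusted p = 1.01e-05). Cat, the catalase that breaks down hydrogen peroxide, was at 124.6 to 146.8 CPM against 370.6 to 785.1 CPM (-2.06 ± 0.24, adjusted p = 1.01e-04), and Gpx4, which reduces lipid peroxides, at 152.1 to 267.5 CPM against 558.8 to 1028.0 CPM (-1.96 ± 0.26, adjusted p = 2.18e-04). All 3 were lower in every Spalax library than in every mouse library. Nqo1, a quinone reductase, was also lower (-0.95 ± 0.24, adjusted p = 0.00812).

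Higher in Spalax were the glutaredoxin Glrx at 90.8 to 124.8 CPM against 30.4 to 40.1 CPM (1.66 ± 0.18, limma adjusted p = 6.58e-05) and the peroxiredoxins Prdx6 (1.15 ± 0.15, adjusted p = 2.33e-04) and Prdx5 (0.74 ± 0.19, adjusted p = 0.00842, 19.1% covered). Sod2, the mitochondrial superoxide dismutase, was higher by 0.68 ± 0.24 (adjusted p = 0.0335), a call lost without any single library but Spalax replicate 1, with adjusted p from 0.0679 to 0.0764. Nfe2l2, the regulator of the antioxidant response, was at 86.2 to 106.7 CPM against 112.2 to 118.6 CPM (adjusted p = 0.152), and Hmox1, heme oxygenase, at 7.91 to 12.7 CPM against 11.7 to 17.3 CPM (adjusted p = 0.112). Neither was called.

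Clock genes differ through the day, and the hour of sampling was not given in the sources used here. Of 19 tested, 2 were called higher and 9 lower (relative median -0.41), with 4 and 6 under TMM. Arntl, encoding the positive factor BMAL1, was at 11.0, 3.66, 6.65 and 20.0 CPM in Spalax and 20.4, 3.04 and 7.14 CPM in mouse (0.15 ± 0.66, limma adjusted p = 0.861), and its target Dbp at 23.4 to 100.8 CPM against 33.9 to 174.0 CPM (adjusted p = 0.307; -1.41 and adjusted p = 0.0430 without mouse replicate 1). Both overlapped widely. Per2 (-0.71 ± 0.27, adjusted p = 0.0479) lost its call without any single library but Spalax replicate 2 and with TMM (adjusted p = 0.158). Nr1d1, encoding REV-ERB alpha, was at 29.0, 85.0, 22.8 and 28.1 CPM against 78.2, 74.1 and 124.7 CPM (-1.33 ± 0.42, adjusted p = 0.0227) and lost its call without Spalax 1, Spalax 3, Spalax 4 or mouse replicate 3 (adjusted p from 0.0511 to 0.0858).

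Rora, a nuclear receptor that drives Arntl, was at 7.92, 6.52, 1.27 and 8.77 CPM in Spalax and 137.6, 95.6 and 164.0 CPM in mouse (-4.54 ± 0.54, limma adjusted p = 1.13e-04), and Hlf, a relative of Dbp, at 1.37 to 8.48 CPM against 47.1 to 72.8 CPM (-3.75 ± 0.47, adjusted p = 1.55e-04). Nr1d2 was lower by -1.58 ± 0.25 (adjusted p = 5.46e-04) and the repressor Cry1 higher by 0.87 ± 0.16 (adjusted p = 0.00168). The separation of Rora and Hlf was the widest of the list.

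Of 23 immediate early genes, which rise within minutes of handling or injury, 4 were called higher and 4 lower (relative median 0.36). Fos was at 36.5, 34.2, 36.8 and 6.43 CPM in Spalax and 12.0, 27.0 and 18.0 CPM in mouse (0.37 ± 0.58, limma adjusted p = 0.601), and was called higher without Spalax replicate 4 (0.97, adjusted p = 0.0229). Egr1 was at 3.83, 22.6, 4.31 and 1.14 CPM against 31.5, 19.3 and 21.0 CPM (-2.17 ± 0.73, adjusted p = 0.0288), at -2.88 without Spalax replicate 2, and the call was lost without Spalax 1, 3 or 4 or mouse replicate 1 or 3 (adjusted p from 0.0535 to 0.0890). Junb (1.30 ± 0.25, adjusted p = 0.00191) and Ier3 (1.36 ± 0.23, adjusted p = 9.27e-04) were higher. Jund was also called higher (0.73 ± 0.23, adjusted p = 0.0210, 52.6% covered), but not without Spalax replicate 2 or mouse replicate 1 or 3. Btg2, a brake on cell growth, was lower at 6.14 to 13.4 CPM against 52.7 to 79.0 CPM (-2.81 ± 0.29, adjusted p = 4.94e-05), as were Klf6 (-1.27 ± 0.27) and Fosl1 (-1.72 ± 0.34, 57.2% covered), and Atf3 was not called (adjusted p = 0.133).

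In the list of muscle wasting and glucocorticoid response, 2 of 20 were called higher and 5 lower (relative median -0.27). The ubiquitin ligases that break down muscle protein did not pass, with Fbxo32 at 114.3 to 231.0 CPM in Spalax against 169.5 to 682.8 CPM in mouse (-0.98 ± 0.43, limma adjusted p = 0.0762; -1.43 and adjusted p = 0.0130 without mouse replicate 2) and Trim63 at 173.9 to 225.4 CPM against 150.7 to 351.9 CPM (adjusted p = 0.828). Foxo1, a transcription factor that induces both, was at 5.33, 8.43, 3.30 and 7.05 CPM against 133.3, 37.3 and 96.9 CPM (-3.67 ± 0.45, adjusted p = 1.38e-04). Ampd3, a deaminase of AMP raised in wasting muscle, was lower (-3.31 ± 0.35, adjusted p = 5.59e-05). The glucocorticoid target Fkbp5 overlapped at 11.8 to 79.2 CPM against 27.9 to 298.7 CPM (-1.78 ± 0.82, adjusted p = 0.0908), and was called without Spalax replicate 4 (-2.32, adjusted p = 0.0331) or mouse replicate 2 (-2.58, adjusted p = 0.0210). Tsc22d3 (0.83 ± 0.27) and Psmd8 (0.51 ± 0.17) were called higher, and not without mouse replicate 1 (adjusted p = 0.0611 and 0.106) or other single libraries.

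Of 24 genes of the mTOR pathway, which couples nutrients to growth, 2 were called higher and 10 lower (relative median 0.09, with 5 and 7 under TMM). Mtor itself was at 141.1, 189.1, 99.4 and 181.3 CPM in Spalax and 121.8, 61.4 and 114.3 CPM in mouse and was not called (0.64 ± 0.30, limma adjusted p = 0.0915), but was called higher with TMM (0.93, adjusted p = 0.00601) or without Spalax replicate 3 (0.83, adjusted p = 0.0304). Deptor, an inhibitor bound to the kinase, was at 6.99, 9.13, 4.41 and 7.91 CPM against 276.1, 168.5 and 223.0 CPM (-4.89 ± 0.27, adjusted p = 1.68e-06). Its groups lay far apart in every library.

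Rraga, a GTPase that brings mTORC1 to the lysosome, was higher at 192.1 to 227.3 CPM against 62.0 to 69.2 CPM (1.66 ± 0.14, limma adjusted p = 1.64e-05), and its counterpart Rragd lower (-1.80 ± 0.25, adjusted p = 2.72e-04). Nprl2 was higher (1.24 ± 0.18, adjusted p = 3.71e-04) and Depdc5 lower (-1.09 ± 0.29, adjusted p = 0.0109, and 0.0571 without mouse replicate 1), both subunits of the same inhibitory complex. Ddit4, a stress-induced inhibitor, was at 22.5 to 59.0 CPM against 22.9 to 61.1 CPM (adjusted p = 0.869).

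Of 39 extracellular matrix genes, 2 were called higher and 12 lower (relative median -0.25), and 7 did not overlap between the species. Col1a1, a chain of the main fibrillar collagen, was at 67.5, 214.6, 65.2 and 53.4 CPM in Spalax and 29.8, 168.7 and 384.2 CPM in mouse (-0.56 ± 0.79, limma adjusted p = 0.557), and Col3a1 at 179.3 to 494.2 CPM against 77.5 to 1053.3 CPM (-0.58 ± 0.79, adjusted p = 0.545). Both were called lower without mouse replicate 1, at -1.59 (adjusted p = 0.0428) and -1.75 (adjusted p = 0.00675). The proteoglycan gene Lum (0.15 ± 0.31, adjusted p = 0.701), Dcn (-0.46 ± 0.24, adjusted p = 0.129; -0.69 and adjusted p = 0.0269 without mouse replicate 2) and the Wnt inhibitor Sfrp1 (0.35 ± 0.54, adjusted p = 0.595) were not called.

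Timp1, an inhibitor of matrix metalloproteinases, was at 18.1, 44.9, 23.4 and 14.2 CPM in Spalax and 1.06, 1.67 and 0.930 CPM in mouse (3.79 ± 0.39, limma adjusted p = 4.92e-05). Lox, the enzyme that crosslinks collagen and elastin, was at 0.621, 2.01, 0.812 and 1.14 CPM against 34.1, 13.7 and 36.7 CPM (-4.07 ± 0.41, adjusted p = 4.74e-05), and Eln, elastin, at 2.33 to 8.03 CPM against 33.5 to 90.7 CPM (-3.33 ± 0.47, adjusted p = 3.26e-04). These genes separated the species in every library. Postn, periostin, was also lower (-3.04 ± 0.72, adjusted p = 0.00562).

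Spalax is known for long-chain hyaluronan, the matrix polysaccharide made by HAS enzymes. Of 15 hyaluronan and heparanase genes tested, 1 was called higher and 3 lower (5 and 3 under TMM). Has2 was at 1.24, 1.56, 0.558 and 1.19 CPM in Spalax and 0.961, 1.21 and 1.69 CPM in mouse (-0.15 ± 0.30, limma adjusted p = 0.685), and Hpse, heparanase, at 0.355 to 2.46 CPM against 1.01 to 3.76 CPM (-0.65 ± 0.50, adjusted p = 0.289). Neither was called different. The receptor Cd44 did not pass (0.87 ± 0.35, adjusted p = 0.0594) except with TMM (1.16, adjusted p = 0.0125), without Spalax replicate 4 or without mouse replicate 3. Hyal1, a hyaluronidase, was higher at 18.1 to 27.9 CPM against 5.82 to 12.4 CPM (1.31 ± 0.29, adjusted p = 0.00433, 51.9% covered), and Stab2 (-3.42 ± 0.30), Has3 (-2.94 ± 0.51) and Hapln1 (-1.46 ± 0.31) were lower. Stab2 and Hapln1 passed the filter only with mouse replicate 1 included, so their calls could not be tested without it. On the uninjected side, Stab2 was at 0.248 to 1.15 CPM in Spalax and 7.77 to 24.6 CPM in mouse. Hapln1 was near 0 in both, at 0 to 0.0663 CPM and 0 to 0.119 CPM.

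Nerve and Schwann cell genes had 3 of 16 called higher and none lower (relative median 0.58). Prph, peripherin, a filament of peripheral neurons, was at 8.91, 15.3, 7.31 and 6.24 CPM in Spalax and 0.432, 0.304 and 0.803 CPM in mouse (3.24 ± 0.34, limma adjusted p = 5.99e-05). The groups did not overlap.

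Hox genes, which keep the body position of a tissue, had 5 of 20 called higher and 6 lower, beside 19 of 39 that were too low to test. Hoxd8 was at 11.9, 16.9, 16.2 and 3.05 CPM in Spalax and 51.3, 74.5 and 66.9 CPM in mouse (-2.59 ± 0.51, limma adjusted p = 0.00204), Hoxd9 at 0.829 to 3.41 CPM against 12.2 to 18.3 CPM (-2.82 ± 0.37, adjusted p = 2.20e-04) and Hoxb4 at 0.524 to 2.18 CPM against 8.35 to 8.58 CPM (-2.15 ± 0.36, adjusted p = 8.24e-04). Hoxb7, Hoxd4 (52.3% covered) and Hoxd1 were higher by 1.28, 1.15 and 1.09, the calls of Hoxb7 and Hoxd4 being lost without mouse replicate 1 (adjusted p = 0.0606 and 0.0522). Hoxd1 had 49 reads in Spalax and 1 in mouse, a ratio of 39.4 with an exact 95% counting interval of 6.74 to 1586.8. Hoxa5 (adjusted p = 0.0670; -1.65 and 0.00670 without Spalax replicate 4) and Hoxc6 (adjusted p = 0.133; 1.32 and 0.00943 without Spalax replicate 3) turned on single libraries. Spalax replicate 4, the library with posterior Hoxa reads, had the lowest Hoxd8 and Hoxb4 of its group.

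Ribosomal protein genes had 22 of 75 called higher and 10 lower, with 32 and 2 under TMM (relative median 0.55). Rpl24 was at 375.4 to 669.3 CPM in Spalax and 2.20 to 5.47 CPM in mouse (6.90 ± 0.29, limma adjusted p = 3.67e-07, 47.0% covered), Rpl23a at 547.6 to 799.0 CPM against 5.66 to 10.4 CPM (6.33 ± 0.23, adjusted p = 1.54e-07, 62.3% covered) and Rpl8 at 3.91 to 6.42 CPM against 433.3 to 666.9 CPM (-6.66 ± 0.22, adjusted p = 9.75e-08). These genes have near-identical copies in mammalian genomes among which reads can be split, so their values are uncertain. Rpl10 was higher by 1.83 ± 0.19, and Rplp2 and Rps15 lower by -1.24 and -1.06, the call of Rps15 being lost with TMM (adjusted p = 0.0564).

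A list of 9 genes that the study singled out on these samples, and so no independent evidence of direction, had 5 called higher and 4 lower. Nme2, a nucleoside diphosphate kinase, was at 258.5, 257.6, 322.6 and 236.3 CPM in Spalax and 0.913, 0.607 and 1.01 CPM in mouse (7.65 ± 0.20, limma adjusted p = 2.37e-08), with 48.9% of its exon bases at chr11:93949814-93956259 under the readthrough gene Gm20390. Nme3 had 654 reads in Spalax and 0 in mouse, at least 175.2-fold higher against a floor of 3 reads over the mouse group, with 99.7% covered. Jak3, a kinase of lymphocyte cytokine receptors, was at 5.02, 9.23, 3.55 and 5.91 CPM against 45.1, 23.1 and 38.2 CPM (-2.50 ± 0.35, adjusted p = 2.81e-04). Ucp1, Cdkn1a and Foxo1, also of this list, are given above.

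Markers of further cell types were read as checks. Of 12 smooth muscle and pericyte genes 1 was called higher and 1, the pericyte gene Rgs5, lower (-1.01 ± 0.25, limma adjusted p = 0.00663). Of 6 lymphoid genes, Cd79a, a B cell receptor chain, was higher at 5.13 to 7.91 CPM against 0.380 to 0.577 CPM (2.79 ± 0.25, adjusted p = 2.26e-05), and 1 other was lower. Krt10, a keratin of skin, was higher at 15 to 62.9 CPM against 2.31 to 5.77 CPM (3.28 ± 0.50, adjusted p = 4.68e-04), with Dsp higher and Sfn lower (1.92 and -2.15), while Krt5 and Krt15, keratins of the basal skin layer, had no reads in Spalax. Of 8 satellite cell and fibroblast genes 3 were lower, including Mfap5 (-1.81 ± 0.36). Of the red cell genes, Alas2, of heme synthesis, was lower (-3.41 ± 0.62, adjusted p = 0.00129; -2.76 without mouse replicate 1 and -4.0 without mouse replicate 2) and Klf1 higher (2.33 ± 0.23).

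Among genes at 10 CPM or more in all 7 libraries, the 10 largest differences to the higher side were at Ankrd23, Sync, Pam, Stbd1, Cnksr1, Hltf, Klhl38, Grb10, Pak1 and Stub1. Pam, the enzyme that amidates peptide hormones, was at 736.3, 826.8, 684.7 and 655.7 CPM in Spalax and 80.9, 47.4 and 95.3 CPM in mouse (3.33 ± 0.24, limma adjusted p = 6.46e-06). Stbd1, which anchors glycogen to membranes, was at 189.9 to 296.7 CPM against 23.9 to 26.2 CPM (3.24 ± 0.19, adjusted p = 2.34e-06), and Grb10, an adaptor that dampens insulin signaling, at 438.9 to 721.0 CPM against 65.2 to 83.6 CPM (2.89 ± 0.20, adjusted p = 5.07e-06). Hltf, a helicase-like DNA translocase of damage tolerance, was at 156.3 to 196.2 CPM against 16.7 to 21.3 CPM (3.21 ± 0.16, adjusted p = 1.02e-06). None of these values overlapped. Ankrd23, a titin-binding stress protein (4.71 ± 0.56), Klhl38 (3.11 ± 0.27) and the ubiquitin ligase Stub1 (2.77 ± 0.17) had 78.2%, 65.4% and 42.3% of exon bases covered, Sync, a filament linker of muscle (3.38 ± 0.27), 27.3%, and Cnksr1 (3.21 ± 0.22) and Pak1 (2.80 ± 0.25) none.

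To the lower side the 10 largest were at Gpx3, Lpl, Fasn, Dgat2, Gpd1, Mylk4, Chpt1, Tkt, Cfd and Acaca. Several serve fat synthesis and storage. Fasn, fatty acid synthase, was at 18.3, 138.0, 23.4 and 61.0 CPM in Spalax and 3887.4, 1044.7 and 455.8 CPM in mouse (-4.80 ± 0.81, limma adjusted p = 8.85e-04; -3.97 without mouse replicate 1 and -5.51 without mouse replicate 3), and Acaca, which makes its substrate, was lower by -3.95 ± 0.51 (adjusted p = 1.92e-04; -3.27 without mouse replicate 1). Dgat2 (-4.51 ± 0.44), Gpd1 (-4.49 ± 0.41), Chpt1 (-4.15 ± 0.24) and Tkt (-4.15 ± 0.28) are enzymes of triglyceride, glycerol phosphate, phospholipid and pentose phosphate metabolism. Mylk4, a kinase of the myosin light chain kinase family, was at 23.4, 147.0, 27.0 and 296.4 CPM against 1379.4, 1470.1 and 1634.5 CPM (-4.35 ± 0.80, adjusted p = 0.00139; -5.02 without Spalax replicate 4).

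Over genes with at least 10 reads in some library of each table, the 5 largest to the higher side were at Tnnc2, Eif4ebp3 (8.31 ± 0.19, 67.3% covered), Cda, Nme2 and Ldoc1. Cda, the cytidine deaminase that salvages pyrimidines, was at 229.2, 259.3, 303.3 and 316.7 CPM in Spalax and 0.432, 0.506 and 0.761 CPM in mouse (8.02 ± 0.20, limma adjusted p = 2.37e-08) with no covered bases. Ldoc1 had 7704 reads in Spalax and 1 in mouse, a ratio of 6191.6 with an exact 95% counting interval of 1110.9 to 244585.1, also with none. The 5 largest to the lower side were at Ucp1, Cidea, Acss1, Pck1 and Xdh. Acss1, which activates acetate in mitochondria, was at 0.829, 0.452, 0.609 and 0.524 CPM against 350.9, 170.5 and 422.7 CPM (-8.07 ± 0.33, adjusted p = 2.66e-07), and Xdh, xanthine oxidoreductase, at 0 to 0.311 CPM against 95.8 to 246.2 CPM (-7.96 ± 0.36, adjusted p = 5.39e-07). The difference of Pck1 was -7.30 without Spalax replicate 1 and -8.63 without mouse replicate 2.

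The other muscle libraries of the series were then added to the controls. Over 12 Spalax and 6 mouse muscle libraries (untreated, tolerant, and the uninjected side of treated animals), 3032 genes (25.2%) did not overlap between the species. Of the 2053 genes called at least 4-fold in the controls, 1375 (67.0%) did not. They were 540 of 628 on the higher side (86.0%) and 835 of 1425 on the lower side (58.6%). The controls that picked the 2053 genes are among these libraries. The share of 67.0% is therefore no test outside the controls and cannot be set against the 25.2% as one.

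On the uninjected side of treated animals, libraries that share no sample with the controls, 2123 of 11738 genes were called higher (18.1%) and 2255 lower (19.2%). Of the 2053 genes, 1976 were tested there, 1953 had the same direction, 1632 (82.6%) were also called and 1256 (63.6%) at least 4-fold. Species, genome and gene models differ between these libraries as they do between the controls, and cannot be told apart here either. Myoglobin (2.58, limma adjusted p = 0.0656), Hif1a (-0.98, adjusted p = 0.0120), Egln1 (-2.17, adjusted p = 7.80e-04), Vhl (2.16, adjusted p = 0.00212) and Pdk1 (-5.57, adjusted p = 8.26e-05) had the direction seen in the controls. So had Sln (7.32, adjusted p = 8.25e-06), Myh7 (3.70, adjusted p = 0.0235), Pvalb (-5.35, adjusted p = 0.0393), Brca2 (3.26, adjusted p = 2.38e-04), Palb2 (4.18, adjusted p = 9.84e-05) and Mdm4 (-3.49, adjusted p = 1.86e-04).

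Several genes of fat and lipid synthesis did not pass the test there. Ucp1 was at -3.26 (limma adjusted p = 0.441), Cidea at -3.69 (adjusted p = 0.304) and Dgat2 at -1.78 (adjusted p = 0.233), and Fasn (0.01), Acly (0.20) and Dio2 (1.17) did not keep the sign of the controls. Spalax fibrosarcoma replicate 2, with Ucp1 at 606.4 CPM, and mouse replicates 2 and 3, with Ucp1 at 119.1 and 0 CPM, enter these values. Of those libraries mouse replicate 3, with the brown fat sum of 109.1 CPM, also had Xist at 305.8 CPM and 0 CPM of Ddx3y, and 224, 299, 66 and 221 reads of Hoxa9, Hoxa10, Hoxa11 and Hoxa13. A test of whether the species difference itself differed between the controls and the uninjected side called 0 of 12409 genes (0%, limma interaction term). The lowest adjusted p was 0.285, and 1245 genes had an unadjusted p under 0.05, where 620 would have it by chance alone. TMM scaling and no filter also called 0, and without mouse control replicate 2 it called 5.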

How the data were processed

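Total RNA of muscle or tumor tissue was sequenced from 25 samples, of which 7 of untreated muscle are compared. Per the labels the authors used TopHat 1.4.1, HTSeq and DESeq, with GRCm38 for mouse, and the strand setting of the counting is not given in the sources used here. The deposited signal is a read count divided by 1 size factor per library, separately in each species' table. All values came out whole once that factor was undone (tolerance 0.1 read). A comma in Spalax gene names stands for a lower-case t, which was restored.

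Reads were brought to a common total over the 14769 shared symbols, and log2(CPM + 0.5) was fitted with limma 3.58.1 in R 4.3.3 (eBayes with trend, no covariate) for genes with at least 0.5 CPM in 3 libraries. The study used a consensus of edgeR and DESeq2. Here edgeR 4.0.16 and DESeq2 1.42.0 on the recovered reads, TMM, other pseudocounts and filters, each library left out, tolerant males, the uninjected side and the removal of genes under other mouse exons (GENCODE vM21) are alternatives. On simulated data for this comparison the fit recovered 97% of 2-unit and 100% of 4-unit log2 changes over 12023 genes, with 3.902% false calls. The simulation changed 100 genes of each size, equally up and down, with the same spread setting for every gene. It does not cover a difference at most genes or the dependence of the split on scaling.

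The members and lists were chosen with earlier results of these data known. Named genes are fixed ones per list, up to 3 in each direction per list among called members whose libraries do not overlap, and the largest over all genes, and some of them are not reported here. Acta1 and the posterior Hoxa genes were chosen after their values were seen. Replicate numbers follow accession order and pair nothing. Each library has its own specimen label, so p-values measure the spread between animals within a species. Counting intervals are exact at 95%, and a group with 0 reads is set at a floor of 3.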

Additional observations from a re-analysis of the deposited data

Results flagged for a closer look

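Of 245 values tested in the 4 Spalax control libraries, 23 had a highest or lowest library far from the rest by Dixon's criterion at 95%. Chance alone flags about 1 of 20. The 23 include Hoxa9, Hoxa10, Hoxa11 and Hoxa13, which were added after their values were seen, so the chance share does not apply to them. The 3 mouse libraries are too few for it.

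Spalax replicate 2 stood high in 12 of them: Col1a1 (214.6 CPM), Lum (189.8), Sfrp1 (90.7), Egr1 (22.6), Irf1 (22.2), Hoxd4 (5.37), Nr1d1 (85.0), Per2 (73.0) and Tkt (46.8), and the summed levels of the interferon and innate immune list (1563.1 CPM), the matrix list (6275.1 CPM) and the macrophage list (510.0 CPM). Spalax replicate 4 stood high in Actn3 (2062.0 CPM), Ngb (1.48), Hoxa9 (23.9), Hoxa10 (11.4), Hoxa11 (2.43) and Hoxa13 (1.00), and low in Fos (6.43) and Hoxb4 (0.524). Spalax replicate 3 stood high in Ndufb2 (370.5 CPM) and low in Brca2 (13.6) and Tlr4 (6.90).

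Outside the shared genes or below the filter, Xist was at 324.5 CPM in the mouse library labelled male as replicate 1, and the salivary gene Bpifa2 was at 1639.8 CPM in mouse replicate 3.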

How the results depend on the processing

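No paired analysis was possible because replicate numbers follow accession order and the species share no animal. Over the 7 controls, settings other than those named here kept each count within 1.5 times and each list median within its spread. With a pseudocount of 5 CPM the 4-fold calls fell to 833 (228 higher, 605 lower), and edgeR and DESeq2 called 1113 and 1130 genes at least 4-fold higher. Tolerant males against mouse controls gave 4632 calls (2647 lower), and the uninjected side of both species 4378 (2255 lower, 872 of them at least 4-fold). Leaving out 1 control at a time, calls ranged from 5330 to 6750 and the interaction from 0 to 5 calls, the 5 without mouse replicate 2 being Bpifa2, Dnase1, Inmt, Pik3c2a and Tmem179. Over those omissions the relative median ranged from -3.76 to -2.01 for brown fat, -0.56 to -0.17 for clock, -0.05 to 0.11 for mTOR and -0.34 to 0.38 for Hox genes.

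Relative list medians that moved by more than their spread were as follows. On the uninjected side they were -0.36 for fast fibers, -0.03 myogenic, -1.14 brown fat, -1.88 white fat, -0.66 oxygen, -0.41 endothelial, -0.12 citrate cycle, -0.73 glycolysis, -0.47 fatty acid oxidation, -1.09 interferon, -0.23 clock, -0.69 wasting, -0.15 mTOR, 0.95 matrix, 0.43 hyaluronan, 0.06 nerve and 0.08 smooth muscle. In tolerant males they were 0.17 for fast fibers, -0.09 myogenic, -0.66 oxygen, -0.61 endothelial, -0.32 respiratory chain, -1.56 fatty acid oxidation, -0.47 interferon, 0.77 immediate early, 0.83 matrix, 0.52 hyaluronan and 1.34 macrophage. A pseudocount of 5 CPM gave -2.10 for brown fat, 0.49 Fanconi and -0.59 interferon, and a filter at 5 CPM 1.07 for Fanconi, -1.0 p53, -1.03 interferon, 0.87 hyaluronan and -1.39 Hox. Without restored names the citrate cycle was at -0.51, with edgeR immediate early genes at 0.67, and without genes under other mouse exons (chosen after seeing the data) citrate cycle -0.44, interferon -0.96, clock -0.25, mTOR 0.27 and Hox -0.34. The cause was not tested, beyond the fewer genes that filters and omissions leave.

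Of 209 named genes, TMM left 197 as they were, with 4 calls lost and 3 gained. On the uninjected side 116 of 206 stayed, 65 lost the call, and 8 reversed: Acly (0.20), Dcn (1.49, limma adjusted p = 0.0354), Dio2 (1.17), Egr1 (0.78), Fasn (0.01), Ldhb (0.21), Per2 (0.08) and Pgk1 (-0.21). Depth limits genes near 1 CPM.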
